A study of Mus musculus with 28 samples.

Results

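Pou3f2, Pou3f3 and Pou3f4, also called Brn2, Brn1 and Brn4, are 3 transcription factor genes of the POU3 class. They were taken by gene symbol from a table of 17295 mouse genes, in which each symbol named 1 gene. All 3 passed the filter on low values, a mean of at least 10 over the 28 libraries, as 16275 genes did in all. The rule is the gene symbol and uses no measured value, but the genes were proposed with earlier results of these data known.

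POU factors bind DNA through a pair of linked parts, a POU-specific domain and a homeodomain, and recognise an octamer element. In neural progenitors the POU3 factors often bind beside a Sox factor, as at the enhancer of the intermediate filament gene Nes. Pou3f2 and Pou3f3 can stand in for each other in the developing cortex, and Pou3f4 is known for its part in the inner ear and in the maturation of striatal neurons. Factors of this class have been used in mixtures that turn fibroblasts into neural cells.

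Messenger RNA was measured in 14 groups of 2 libraries each. Of these, 10 groups were induced neural stem cell lines, called miNSC in the labels, made from mouse fibroblasts with a doxycycline transactivator (M2rtTA) and doxycycline-driven lentiviruses. Doxycycline was given for 18 days, and colonies were picked at day 20 and grown on in neural stem cell medium. Every cocktail held eSox17FNV (written F), an engineered Sox17, and K. B and M, like K, are given in the labels only as letters. The cocktails with B were BKF and 4F, which holds B, K, M and F, and those without B were KF and KMF. Lines with B came from 1.0-year Sox2-GFP ear fibroblasts (4F), 1.0-year Sox2-GFP tail-tip fibroblasts (4F at passages 18 and 8, and BKF), Sox2-GFP embryonic fibroblasts (BKF) and ICR embryonic fibroblasts (BKF). Lines without B came from 1.0-year Sox2-GFP tail-tip fibroblasts (KMF), Sox2-GFP embryonic fibroblasts (KMF and KF) and ICR embryonic fibroblasts (KF). The NSC group, neural stem cells from 2.5-year mice with the Sox2-GFP reporter, had 1 library at passage 5 and 1 at passage 2. The fibroblast groups, given no factors, were tail-tip cells of 2.5-year and 1.0-year mice and skin cells of 2.5-year mice, all Sox2-GFP. No embryonic, ear or ICR fibroblasts were measured. A group of miNSC can be 1 picked colony, and nothing says that its 2 libraries came from separate cultures, so p-values speak of the spread among these libraries, which may be technical.

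The values are whole numbers on the authors' normalised scale. The sorted values were almost the same in every library, and the totals lay between 15563679 and 15571626. At any sorted position the libraries differed by at most 5. The lowest value over the libraries was 236 at percentile 50, 1058 at percentile 80 and 3336 at percentile 95. Depth is therefore unknown. A gene listed at 0 may lie below what these libraries could detect, and levels are compared between libraries of a gene and not between genes. A value does not tell chromosomal transcripts and lentiviral copies of a gene apart, so for a cocktail factor the level can hold both. In cell mixtures, fewer cells of a type and less RNA per cell cannot be told apart. The labelled cell types were checked against markers. The summed level of 10 neural stem cell markers was 70154 to 141450 in lines with B, 70406 to 124248 in lines without B, 79741 to 132725 in NSC and 456 to 1272 in fibroblasts. Much of this sum was Fabp7, at 28060 to 92914 in all lines and in NSC and at 83 to 251 in fibroblasts. The summed level of 10 fibroblast markers was 665 to 3579 in lines with B, 1023 to 5197 in lines without B, 788 to 2579 in NSC and 220752 to 244795 in fibroblasts. Hes5, Sox1 and Sox2 were listed at 0 in every fibroblast library.

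Each of the 3 genes has a single exon in GENCODE M21 (GRCm38). Pou3f2 (ENSMUSG00000095139) lies on chromosome 4 from 22482780 to 22488366 on the minus strand, and its transcript has 5587 bases. Pou3f3 (ENSMUSG00000045515) lies on chromosome 1 from 42695768 to 42703176 on the plus strand, with 7409 bases. Pou3f4 (ENSMUSG00000056854) lies on chromosome X from 110814280 to 110817207 on the plus strand, with 2928 bases. The 250 bases before the start of each gene are shown because the 3 genes were nearly silent in fibroblasts and high in almost all lines and NSC. They are from RefSeq on GRCm38.p6, written 5′ to 3′ along the gene's strand, and capitals mark CCAAT, the CCAAT box, or its reverse complement ATTGG.
Pou3f2, chr4:22488367-22488616, minus strand: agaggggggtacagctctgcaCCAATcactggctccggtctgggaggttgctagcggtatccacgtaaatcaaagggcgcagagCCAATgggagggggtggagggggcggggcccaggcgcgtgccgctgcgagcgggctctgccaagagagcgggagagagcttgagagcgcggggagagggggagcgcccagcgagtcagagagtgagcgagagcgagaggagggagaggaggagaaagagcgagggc
Pou3f3, chr1:42695518-42695767, plus strand: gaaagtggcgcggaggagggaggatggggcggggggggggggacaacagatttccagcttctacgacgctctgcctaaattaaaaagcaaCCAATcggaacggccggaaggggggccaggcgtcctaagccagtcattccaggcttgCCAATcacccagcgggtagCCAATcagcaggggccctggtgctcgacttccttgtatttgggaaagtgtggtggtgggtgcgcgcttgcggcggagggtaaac
Pou3f4, chrX:110814129-110814378, plus strand: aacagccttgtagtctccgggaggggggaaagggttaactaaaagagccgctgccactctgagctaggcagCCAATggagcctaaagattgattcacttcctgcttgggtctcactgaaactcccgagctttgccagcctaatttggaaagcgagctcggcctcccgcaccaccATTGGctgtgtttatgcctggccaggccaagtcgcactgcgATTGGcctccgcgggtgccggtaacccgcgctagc
The start that RefSeq gives for Pou3f4 lies inside the GENCODE gene, so 99 of the 250 bases of its window overlap the GENCODE exon.

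Pou3f2 held 2 CCAAT boxes in its window, and Pou3f3 and Pou3f4 held 3 each. Of those of Pou3f4, 2 lie inside the GENCODE exon and 1 before it. Of 32851 RefSeq mouse promoters cut to the same length, 33.8% held at least 1, 10.1% at least 2 and 2.79% at least 3, on either strand. The octamer ATGCAAAT, the element of POU factors themselves, had 0 matches in the 3 windows on either strand and was held by 1.6% of all promoters. A short Sox element, ACAAT, also had 0 matches, against 27.7% of promoters, and the TATA box TATAAA had 0, against 12.4%. These are matches of letters in 250 bases and show no binding.

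The genes are alike in their coding bases, so the chance of shared reads was checked between their transcripts. No run of 50 bases was shared between any pair of Pou3f1, Pou3f2, Pou3f3 and Pou3f4. The longest run of any pair was that of Pou3f1 and Pou3f2, with 38 bases within coding sequence. The longest exact run shared by Pou3f2 and Pou3f4 had 29 bases, and that of Pou3f3 and Pou3f4 had 23 bases, both within coding sequence. They are shown because a shorter read inside them could not be assigned to 1 gene.
Pou3f2 and Pou3f4: ctgagcttcaagaacatgtgcaagctgaa
Pou3f3 and Pou3f4: tatggcaacgtgttctcgcagac
Pou3f2 and Pou3f3 shared at most 23 bases, a GA-rich run outside their coding sequence.

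In every miNSC line but 1 the 3 genes were well above fibroblasts. Pou3f2 and Pou3f3 were on in all 20 miNSC libraries, with B or without it. Pou3f4 was on in 18 of them and was listed at 0 in both libraries of the ICR embryonic KF line.

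**Figure D1:**
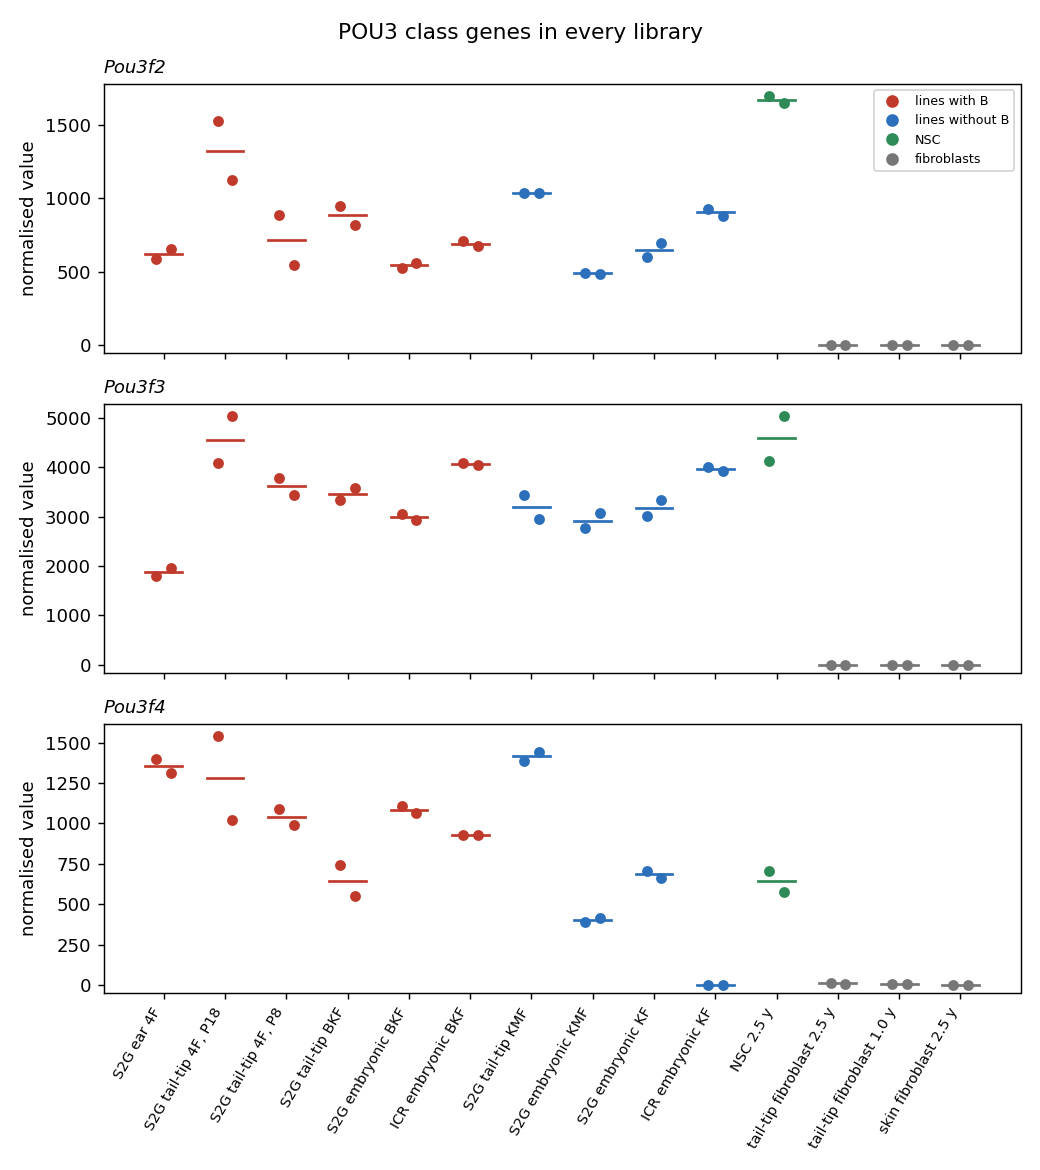
Normalised value (vertical axis) of Pou3f2, Pou3f3 and Pou3f4 in each of the 28 libraries by group, 1 point per library with a bar at the group mean; P8 and P18 are passages and S2G is Sox2-GFP. Pou3f2 reached at least 481 in all lines with B and without B and 0 in fibroblasts, while Pou3f4 stood at 0 in ICR embryonic KF.

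Pou3f2, a factor of neural progenitors and upper-layer cortical neurons, was on at similar levels in lines with B and without B. Among lines with B, its normalised value was 584 and 654 in ear 4F, 1526 and 1126 in tail-tip 4F at passage 18, 889 and 542 in tail-tip 4F at passage 8, 949 and 821 in tail-tip BKF, 523 and 562 in Sox2-GFP embryonic BKF, and 706 and 672 in ICR embryonic BKF. Among lines without B, Pou3f2 was at 1036 and 1039 in tail-tip KMF, 494 and 481 in Sox2-GFP embryonic KMF, 602 and 695 in Sox2-GFP embryonic KF, and 930 and 883 in ICR embryonic KF. NSC held 1648 and 1698, and all 6 fibroblast libraries were listed at 0. The libraries with B, at 523 to 1526, and those without B, at 481 to 1039, overlapped, with both libraries of tail-tip 4F at passage 18 above every library without B. No line library came near 0.

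Pou3f2 averaged 796 ± 295 in lines with B (SD, n = 12 libraries) and 770.0 ± 231 in lines without B (n = 8). In limma's fit of all 14 groups, its log2 fold change between them was 0.03 ± 0.08 (SE; 95% interval -0.13 to 0.20; adjusted p = 0.805, Benjamini-Hochberg). In that comparison limma called 23.5% of all tested genes, 11.0% higher and 12.5% lower with B, and of the 3 POU3 genes it called Pou3f4 alone. With each line as 1 value and the passages of the tail-tip 4F line averaged, log2 Pou3f2 was 9.49 ± 0.34 over 5 lines with B and 9.53 ± 0.49 over 4 lines without B. A two-sided exact permutation test over the 126 splits of the lines gave p = 0.921, and the smallest p it can give is 0.0159.

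The mean of Pou3f2 was below that of NSC both in lines with B and in lines without B. Lines with B averaged 796 against 1673 in NSC (log2 fold change -1.15 ± 0.13, limma adjusted p = 3.99e-06). There limma called 42.5% of all genes, with 20.6% of all genes called lower. Lines without B averaged 770.0 against the same 1673 (log2 fold change -1.18 ± 0.14, limma adjusted p = 4.84e-06), where limma called 34.0% of genes. With group means as the samples, which leaves NSC with 1, the adjusted p was 0.365 for lines with B and 0.692 for lines without B. The lowest line mean was 29.1% of the NSC mean (Sox2-GFP embryonic KMF) and the highest 79.3% (tail-tip 4F at passage 18). Both comparisons share the NSC libraries, which differ in passage.

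Against fibroblasts, where it was listed at 0, Pou3f2 was higher in lines with B (limma adjusted p = 1.7e-21) and in lines without B (limma adjusted p = 5.93e-21). No fold change is given, since a fitted value depends on the pseudocount. Limma called 75.8% of all genes for lines with B against fibroblasts, with 42.7% of all genes called higher. For lines without B it called 73.6% of all genes, with 40.9% of all genes called higher. In the comparison with B, 19.1% of all genes had every line library above every fibroblast library, as all 3 POU3 genes did.

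The 6 matched comparisons of B were each made within 1 source of fibroblasts. Of the factors, BKF against KF and 4F against KMF change B alone, while BKF against KMF gains B and loses M. Among miNSC lines the labels give a passage for tail-tip 4F alone, so comparisons with it may differ in passage as well. The 6 are not independent, since the tail-tip comparisons share the KMF libraries and the Sox2-GFP embryonic ones share the BKF libraries. They put Pou3f2 lower with B in 4 and higher in 2. The only 1 to pass was tail-tip 4F at passage 8 against KMF, 889 and 542 against 1036 and 1039. There limma called 35.5% of all genes, with 17.4% of all genes called lower. For Pou3f2 the log2 fold change was -0.58 ± 0.17 (limma adjusted p = 0.0144). That call was lost without the second passage 8 library (log2 fold change -0.22, adjusted p = 0.286) and without either KMF library (adjusted p = 0.065 and 0.062). At passage 18 the same line stood above KMF (log2 fold change 0.34 ± 0.17, limma adjusted p = 0.199; 19.1% of genes called). In ICR embryonic lines Pou3f2 was 706 and 672 with BKF against 930 and 883 with KF (log2 fold change -0.40 ± 0.17, limma adjusted p = 0.166; 13.1% of genes called). The difference passed when the spread came from these 4 libraries alone (limma adjusted p = 0.0452). The other 3 comparisons had limma log2 fold changes of Pou3f2 between -0.25 and 0.15, with adjusted p of 0.278 to 0.667.

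In the tail-tip 4F line Pou3f2 was higher at passage 18 than at passage 8, 1526 and 1126 against 889 and 542 (log2 fold change 0.92 ± 0.17, limma adjusted p = 0.000629). In that comparison limma called 35.1% of all genes, with 17.5% of all genes called higher, so a call is common there. The passage 8 libraries differed from each other more than those of most lines, and the adjusted p was 0.127 when only these 4 libraries entered the fit. Other comparisons with passage 8 turned on which of its libraries was kept. Against tail-tip BKF, Pou3f2 at passage 8 had a log2 fold change of -0.35 ± 0.17 (limma adjusted p = 0.157; 26.1% of genes called), which was -0.70 without the first passage 8 library (adjusted p = 0.00371) and 0.01 without the second (adjusted p = 1). Ear 4F against passage 8 gave -0.17 ± 0.17 (limma adjusted p = 0.516; 27.2% of genes called), which was 0.19 without the first library (adjusted p = 0.413) and -0.52 without the second (adjusted p = 0.0163).

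**Figure D2:**
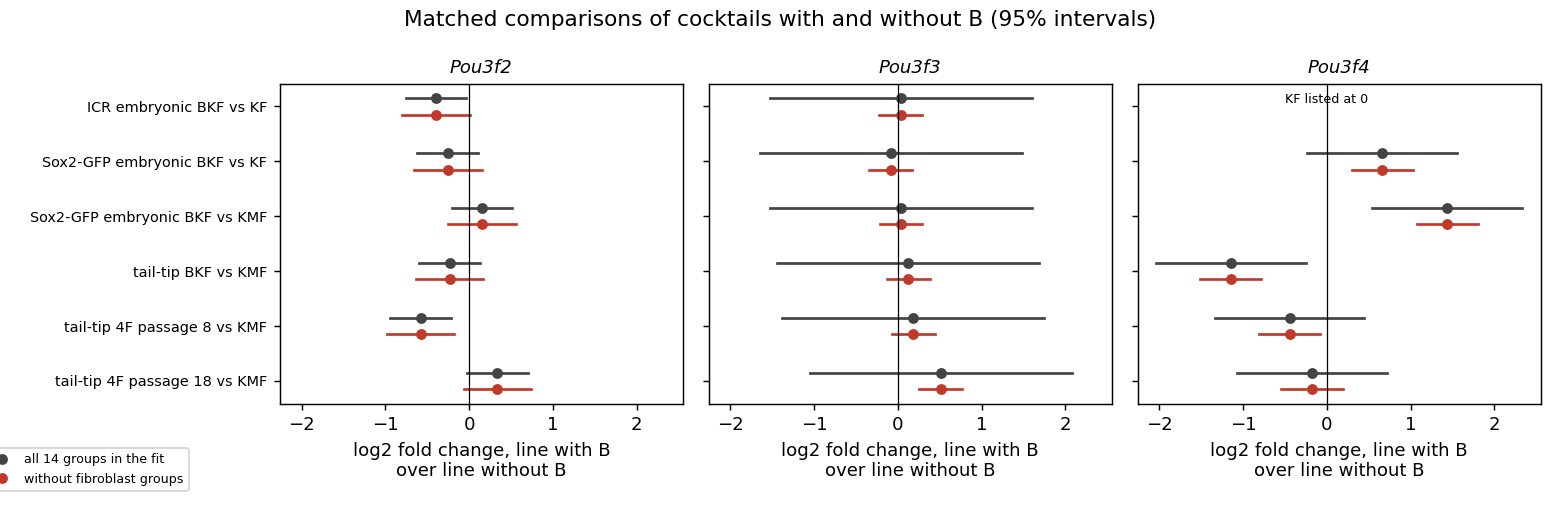
Log2 fold change with its 95% interval (horizontal axis, log2 units) of each gene in the 6 matched comparisons of lines with B over lines without B, fitted by limma with all 14 groups (dark) or without the fibroblast groups (red). Pou3f3 stayed within 0.51 of 0. Pou3f4 was at 1.44 in Sox2-GFP embryonic BKF over KMF and at -1.15 in tail-tip BKF over KMF, pairs that gain B and lose M. ICR is left out for Pou3f4, since KF was listed at 0.

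Pou3f3, which acts with Pou3f2 in cortical progenitors and upper-layer neurons, was also on in all lines. Among lines with B its normalised value was 1808 and 1967 in ear 4F, 4078 and 5028 in tail-tip 4F at passage 18, 3772 and 3443 in tail-tip 4F at passage 8, 3336 and 3578 in tail-tip BKF, 3048 and 2922 in Sox2-GFP embryonic BKF, and 4078 and 4040 in ICR embryonic BKF. Among lines without B, Pou3f3 was at 3428 and 2943 in tail-tip KMF, 2764 and 3068 in Sox2-GFP embryonic KMF, 3002 and 3336 in Sox2-GFP embryonic KF, and 4005 and 3924 in ICR embryonic KF. NSC held 5028 and 4127, and fibroblasts held 0 to 8 with a median of 4.5. The ear line was the lowest and stood apart from all other lines, and the 4F line at passage 18 overlapped NSC.

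Pou3f3 averaged 3425 ± 909 in lines with B (SD, n = 12 libraries) and 3309 ± 457 in lines without B (n = 8). The log2 fold change was 0.01 ± 0.34 (95% interval -0.70 to 0.72, limma adjusted p = 1). The fibroblast libraries stood at 0 or at 4 to 8, which are far apart on the log scale, and they share in the estimate of the spread. Fitted without the fibroblast groups, an alternative chosen after seeing the data, Pou3f3 had the same log2 fold change with a standard error of 0.05 and an interval of -0.11 to 0.12 (limma adjusted p = 0.937). Over line means, log2 Pou3f3 was 11.63 ± 0.46 in 5 lines with B and 11.68 ± 0.19 in 4 lines without B (two-sided exact permutation p = 0.952).

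The 6 matched comparisons gave log2 fold changes of Pou3f3 between -0.09 and 0.51, and none passed (limma adjusted p of 0.721 to 1). Without the fibroblast groups 1 of the 6 passed, tail-tip 4F at passage 18 against KMF, with 4078 and 5028 against 3428 and 2943 (log2 fold change 0.51 ± 0.12, limma adjusted p = 0.0096). Ear 4F was the miNSC group with the lowest Pou3f3. Ear 4F held 1808 and 1967 against 3772 and 3443 in tail-tip 4F at passage 8, 0.523 of its mean (log2 fold change -0.93 ± 0.74, limma adjusted p = 0.392; 27.2% of genes called). Fitted without the fibroblast groups, this difference passed (log2 fold change -0.93 ± 0.12, limma adjusted p = 9.79e-05). Each origin is 1 group here, so origin and line cannot be told apart.

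Against NSC, Pou3f3 was 25.2% lower on average in lines with B (log2 fold change -0.47 ± 0.56, limma adjusted p = 0.54) and 27.7% lower in lines without B (log2 fold change -0.47 ± 0.58, limma adjusted p = 0.578). Neither passed with the fibroblast groups in the fit, and both passed without them (limma adjusted p = 0.00124 and 0.00175). In the fit without them limma called 41.2% and 32.6% of all genes in these comparisons. NSC is 1 group of 2 libraries that differ in passage, so these calls rest on the spread within groups. Against fibroblasts Pou3f3 was higher in lines with B (log2 fold change 9.84 ± 0.37, limma adjusted p = 2.08e-13) and in lines without B (log2 fold change 9.84 ± 0.40, limma adjusted p = 6.82e-13). The size depends on the pseudocount, since fibroblasts were at 0 to 8, and with a pseudocount of 10 both log2 fold changes were 7.92. No line library overlapped a fibroblast library.

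Pou3f4, a factor of ventral forebrain progenitors and their neurons, was the member that varied most between lines. Among lines with B its normalised value was 1401 and 1314 in ear 4F, 1539 and 1021 in tail-tip 4F at passage 18, 1091 and 992 in tail-tip 4F at passage 8, 745 and 548 in tail-tip BKF, 1106 and 1062 in Sox2-GFP embryonic BKF, and 930 and 930 in ICR embryonic BKF. Among lines without B, Pou3f4 was at 1388 and 1444 in tail-tip KMF, 387 and 412 in Sox2-GFP embryonic KMF, 706 and 662 in Sox2-GFP embryonic KF, and 0 and 0 in ICR embryonic KF. NSC held 578 and 704, and fibroblasts held 0 to 13 with a median of 6.5. One line without B was the highest of all groups and another was at 0, so lines without B spread on both sides of those with B.

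Pou3f4 averaged 1057 ± 272 in lines with B (SD, n = 12 libraries) and 625 ± 553 in lines without B (n = 8). Limma called it higher with B (log2 fold change 2.87 ± 0.19, adjusted p = 2.97e-08), but the size rests on the ICR embryonic KF line at 0. Without the ICR lines, an alternative chosen after seeing the data, Pou3f4 had a log2 fold change of 0.52 (limma adjusted p = 0.0928). That fit kept the fibroblast groups, whose Pou3f4 values of 0 to 13 share in the estimate of the spread. With all lines compared, the standard error was 0.19 with the fibroblast groups and 0.08 without them. The ICR lines and the fibroblast groups were not left out together. With group means as the samples and the ICR lines kept, the adjusted p was 1. Over line means the two-sided exact permutation test gave p = 0.175, and without the ICR lines p = 0.514, where 35 splits allow no p below 0.0571.

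The matched comparisons of Pou3f4, of which those of BKF against KMF also lose M, went both ways. In ICR embryonic lines it was 930 and 930 with BKF against 0 and 0 with KF (limma adjusted p = 7.72e-11, no fold given). Limma called 13.1% of all genes there in either direction, with 6.69% of all genes called higher. The summed fibroblast markers of these lines were 665 to 764 with BKF against 4505 to 5197 with KF, and 6 of the 10 markers were called lower with BKF. Their summed neural stem cell markers were 133064 to 136099 with BKF against 121948 to 124248 with KF, with Fabp7 alone at 92914 in every library. Whether either has a part in the difference of Pou3f4 was not tested.

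In Sox2-GFP embryonic lines Pou3f4 was 1106 and 1062 with BKF against 387 and 412 with KMF, 2.71 times the mean (log2 fold change 1.44 ± 0.42, limma adjusted p = 0.0393; 10.3% of genes called, 4.96% higher). This call did not hold when any of the 4 libraries was left out (limma adjusted p of 0.142 to 0.167) or under quantile normalisation (0.11), while without the fibroblast groups the adjusted p was 0.000174. Against KF in the same embryonic cells, Pou3f4 with BKF was at 1106 and 1062 against 706 and 662 (log2 fold change 0.66 ± 0.42, limma adjusted p = 0.247; 37.7% of genes called). Without the fibroblast groups this difference passed too (limma adjusted p = 0.00801). All 7 astrocyte markers were lower in BKF than in KF here, with sums of 9807 to 10090 against 26765 to 30220, and of the 10 fibroblast markers 0 were called higher and 1 lower, with sums of 1214 to 1521 against 1023 to 1143. Their part in the difference was not tested.

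In tail-tip lines the order was turned round. Pou3f4 was 745 and 548 with BKF against 1388 and 1444 with KMF, 0.457 of the mean (log2 fold change -1.15 ± 0.42, limma adjusted p = 0.0896; 13.0% of genes called). Without the fibroblast groups that difference passed (log2 fold change -1.15 ± 0.17, limma adjusted p = 0.000966). Tail-tip 4F at passage 8 held 1091 and 992 and at passage 18 held 1539 and 1021, against the same KMF libraries (log2 fold changes -0.44 ± 0.42 and -0.18 ± 0.42, limma adjusted p = 0.472 and 0.876). The interaction of origin and cocktail, tail-tip BKF over KMF less Sox2-GFP embryonic BKF over KMF, was -2.58 ± 0.59 on the log2 scale for Pou3f4 (limma adjusted p = 0.00902; 13.1% of genes called). For Pou3f2 it was -0.39 ± 0.24 and for Pou3f3 0.09 ± 1.04 (limma adjusted p = 0.353 and 1). The interaction of strain and B passed for Pou3f4 as well (limma adjusted p = 1.45e-08; 32.1% of genes called) and rested on ICR embryonic KF at 0. In the interaction of origin and cocktail both sources gain B and lose M, so B and M cannot be told apart. Each combination of source and cocktail here is 1 group of 2 libraries, which can be 1 picked colony. An effect of origin or strain and a difference between picked lines therefore cannot be told apart.

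In other pairs the cocktails differed in M alone. Pou3f4 was 387 and 412 in Sox2-GFP embryonic KMF against 706 and 662 in KF (log2 fold change -0.77 ± 0.42, limma adjusted p = 0.168; 39.1% of genes called). It was 1091 and 992 in tail-tip 4F at passage 8 against 745 and 548 in tail-tip BKF (log2 fold change 0.70 ± 0.42, limma adjusted p = 0.25; 26.1% of genes called). Without the fibroblast groups both passed (limma adjusted p = 0.00293 and 0.00903).

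Against NSC, lines with B averaged 1057 against 641 for Pou3f4 (log2 fold change 0.68 ± 0.32, limma adjusted p = 0.103; 42.5% of genes called). Without the fibroblast groups this difference passed (limma adjusted p = 0.0011; 41.2% of genes called). NSC is 1 group of 2 libraries that differ in passage. Lines without B averaged 625 against 641, and their fitted fall (limma adjusted p = 9.23e-05; 34.0% of genes called) includes the ICR embryonic KF libraries at 0. The line means ran from 62.3% to 220.9% of the NSC mean, ICR embryonic KF left out. Against fibroblasts Pou3f4 was higher in lines with B (log2 fold change 7.54 ± 0.21, limma adjusted p = 4.15e-15, and 6.05 with a pseudocount of 10), and none of their libraries overlapped. In lines without B it was also called higher (limma adjusted p = 8.32e-12), but the ICR embryonic KF libraries at 0 overlapped the fibroblasts, and with group means as samples the adjusted p was 0.198.

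The order of the levels differed from gene to gene. For Pou3f2 NSC came first, then tail-tip 4F at passage 18, then tail-tip KMF, and these 3 did not overlap their neighbours. From ICR embryonic KF down to ear 4F each group's libraries overlapped the next group's, and Sox2-GFP embryonic KMF was the lowest line. For Pou3f3 NSC, tail-tip 4F at passage 18 and ICR embryonic BKF came first with overlap, and ear 4F was the lowest. For Pou3f4 the first 5 groups, from tail-tip KMF to tail-tip 4F at passage 8, overlapped from neighbour to neighbour, NSC came 9th, and ICR embryonic KF was last, overlapping the skin fibroblasts. Above 0, the highest miNSC group mean was 2.72 times the lowest for Pou3f2, 2.41 times for Pou3f3 and 3.54 times for Pou3f4. Over the 10 miNSC group means on the log2 scale, Pearson's r was 0.57 between Pou3f2 and Pou3f3, -0.13 between Pou3f2 and Pou3f4 and -0.27 between Pou3f3 and Pou3f4, given as a description of groups that share strains and sources.

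Pou3f1, the remaining gene of the class and known from Schwann cells and early neural commitment, is not among the 3 genes but is their nearest relative. It ranged more widely, with a highest miNSC group mean 20.2 times the lowest. Among lines with B its value was 866 and 922 in ear 4F, 45 and 114 in tail-tip 4F at passage 18, 1036 and 359 in tail-tip 4F at passage 8, 1024 and 1148 in tail-tip BKF, 662 and 678 in Sox2-GFP embryonic BKF, and 212 and 234 in ICR embryonic BKF. Among lines without B, Pou3f1 was at 220 and 253 in tail-tip KMF, 1213 and 1252 in Sox2-GFP embryonic KMF, 64 and 58 in Sox2-GFP embryonic KF, and 548 and 644 in ICR embryonic KF. NSC held 71 and 60, and 5 of 6 fibroblast libraries were listed at 0 with the other at 1. High and low lines stood on both sides of B.

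Pou3f1 did not pass between lines with and without B (log2 fold change 0.42 ± 0.19, limma adjusted p = 0.128). Within sources it was higher with BKF than with KF in Sox2-GFP embryonic lines (log2 fold change 3.44 ± 0.42, limma adjusted p = 1.03e-05) and lower in ICR embryonic lines (log2 fold change -1.41 ± 0.42, limma adjusted p = 0.0352). The interaction of strain and B for Pou3f1 passed (log2 difference -4.85 ± 0.59, limma adjusted p = 1.33e-05). In tail-tip lines Pou3f1 was higher with BKF than with KMF (log2 fold change 2.20 ± 0.42, limma adjusted p = 0.0024). In Sox2-GFP embryonic lines its mean was lower with BKF than with KMF, 670 against 1232.5. Both pairs gain B and lose M. Tail-tip 4F had 2.95 times the mean of tail-tip KMF at passage 8 and 0.336 times at passage 18. Pou3f1 was lower at passage 18 than at passage 8 of the 4F line (log2 fold change -3.07 ± 0.42, limma adjusted p = 4.36e-05), where Pou3f2 was higher. The passage 8 libraries lay far apart for Pou3f1.

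**Figure D3:**
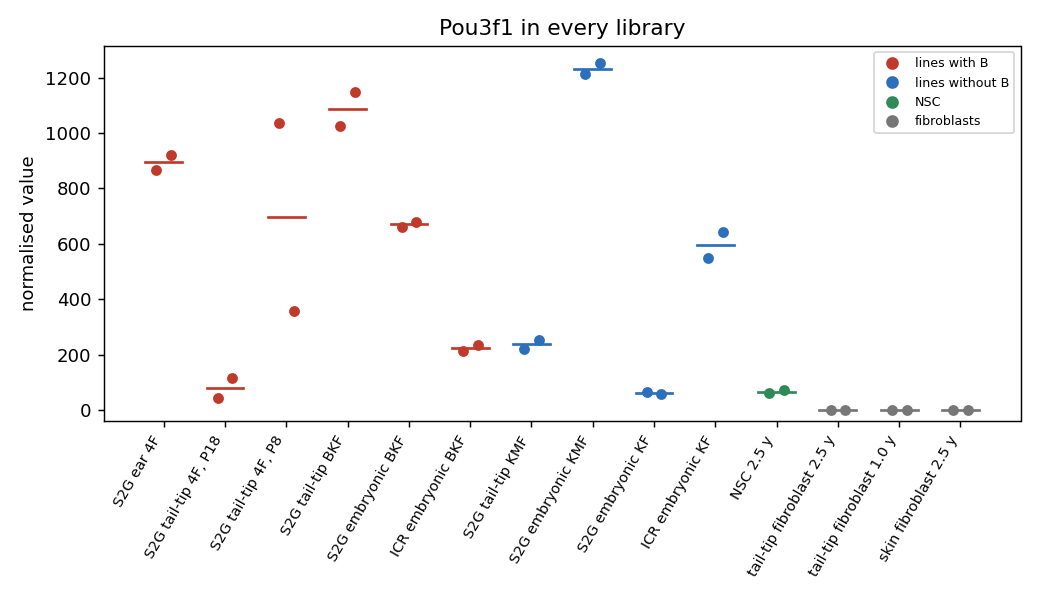
Normalised value (vertical axis) of Pou3f1 in each of the 28 libraries by group, 1 point per library with a bar at the group mean. Sox2-GFP embryonic KMF averaged 1232.5 and Sox2-GFP embryonic KF 61, with the NSC group at 65.5.

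Of 12 listed POU genes outside the 3, Pou3f1 included, 7 were in the table and 5 were tested. Between lines with and without B, 0 were called higher and 1 lower, with a median log2 fold change of -0.14 beside 0.02 over all tested genes, of which 11.0% were called higher and 12.5% lower. The 1 was Pou6f1, with a mean of 951 in lines with B and 1165 in lines without B (log2 fold change -0.29 ± 0.08, limma adjusted p = 0.0168), a call lost with group means as the samples. Against fibroblasts all 5 were called higher in lines with B, where 42.7% of all genes were. Pou5f1 was among the listed genes that were not analysed here.

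A list of 7 genes whose enhancers or promoters are known to be bound by POU3 factors had 6 tested members. Between lines with and without B, 1 was called higher and 1 lower, with a median log2 fold change of 0.07, near the 11.0% and 12.5% of all genes. Nes, the neural stem cell filament, was at 6861 to 32716 in lines with B with a median of 9776, and at 5952 to 21808 in lines without B with a median of 7868 (log2 fold change 0.31 ± 0.09, limma adjusted p = 0.0251). Mitf, a pigment cell factor, was at 59 to 92 in lines with B with a median of 78, and at 84 to 146 in lines without B with a median of 101.5 (log2 fold change -0.48 ± 0.09, limma adjusted p = 0.00146). The libraries of both overlapped, and both calls were lost with group means as the samples. Fabp7, a fatty acid carrier of radial glia (log2 fold change 0.21), Dll1, a Notch ligand (0.26), Sox2 (-0.08) and Egr2, a factor of myelinating glia and the hindbrain (-0.61), did not pass in limma.

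Of 7 listed Sox genes that pair with POU3 factors in neural cells, 6 were tested, and 1 was called higher with B and 0 lower, beside 11.0% and 12.5% of all genes. This was Sox1, an early neural factor. Its value was 18 to 30 in ear 4F, 32 to 108 in tail-tip 4F at passage 18, 198 to 209 at passage 8, 77 to 108 in tail-tip BKF, 6 in both libraries of Sox2-GFP embryonic BKF, and 506 to 554 in ICR embryonic BKF. Without B, Sox1 was at 13 to 14 in tail-tip KMF, 3 to 5 in Sox2-GFP embryonic KMF, 7 to 14 in Sox2-GFP embryonic KF and 0 in both ICR embryonic KF libraries (limma adjusted p = 1.23e-09, no fold given). Lines with and without B overlapped for Sox1, the call was lost with group means as the samples, and NSC stood above them all with 1148 and 1039. Sox2, Sox3, Sox4, Sox11 and Sox21 had limma log2 fold changes between -0.34 and 0.06 and did not pass.

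Between lines with and without B, where 11.0% of all genes were called higher and 12.5% lower, all 7 astrocyte markers were called lower (median log2 fold change -0.71), with sums of 5228 to 28732 in lines with B and 12018 to 30220 in lines without B. Within sources the astrocyte markers differed. In Sox2-GFP embryonic BKF, 7 were called lower against KF (37.7% of all genes called) and 3 against KMF (10.3%). In tail-tip 4F against KMF, 5 were lower at passage 8 (35.5%), while 2 were higher and 2 lower at passage 18 (19.1%). In ICR embryonic BKF against KF, 1 was higher and 1 lower (13.1%). In tail-tip BKF against KMF, 2 were higher and 2 lower (13.0%). Between lines with and without B, 2 of the 10 neural stem cell markers were called higher and 1 lower. Of 8 tested neuron markers 2 were higher and 0 lower, and of 5 tested oligodendrocyte lineage markers 1 higher and 1 lower. Of 10 fibroblast markers 0 were higher and 3 lower, all beside the same 11.0% and 12.5% of all genes. Sox17, Klf4 and Myc, known as reprogramming factors, were all called lower with B, but not in every source. Klf4 averaged 257 in lines with B and 1213 in lines without B (log2 fold change -2.04 ± 0.19, limma adjusted p = 1.05e-06), and Myc averaged 1607 and 2568 (log2 fold change -0.47 ± 0.14, limma adjusted p = 0.0189). The mean of Sox17 was higher with B, 95 against 48, while its log2 fold change was -0.58 ± 0.19 (limma adjusted p = 0.0357). In tail-tip BKF against KMF, Sox17 and Myc were called higher and Klf4 was not called. With group means as the samples, Hao1 was the 1 gene called between lines with and without B, so none of the calls of list genes in that comparison held. The part of these markers in the levels of the 3 genes was not tested.

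A long intergenic RNA gene lies next to each of the 3 genes on the opposite strand. These neighbours were looked up after the values had been seen. Pantr1 is 0.9 kb from Pou3f3, Gm44593 is 2.0 kb from Pou3f4 and Gm30731 is 2.2 kb from Pou3f2. Strand use in counting is not given in the sources used here, so reads of overlapping transcripts near the starts could not be told apart.

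Pantr1 followed Pou3f3 in being off in fibroblasts. It was at 334 to 678 in lines with B, 342 to 652 in lines without B and 959 and 490 in NSC, and was listed at 0 in all 6 fibroblast libraries (limma adjusted p = 1.25e-19 for lines with B against fibroblasts). Gm30731 was low throughout, at 18 to 70 in lines with B and 25 to 64 in lines without B, against 0 to 1 in fibroblasts (limma adjusted p = 1.12e-13 for lines with B, no fold given). Gm44593 was at 392 to 610 in lines with B against 137 to 156 in fibroblasts (log2 fold change 1.76 ± 0.18, limma adjusted p = 1.19e-07). In ICR embryonic lines, where Pou3f4 differed, Gm44593 was at 454 and 610 with BKF against 148 and 500 with KF, so 1 KF library lay in the fibroblast range and the other among the lines (limma adjusted p = 0.102). None of Pantr1, Gm30731 and Gm44593 passed between lines with and without B (limma adjusted p = 0.89, 0.883 and 0.531).

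**Figure D4:**
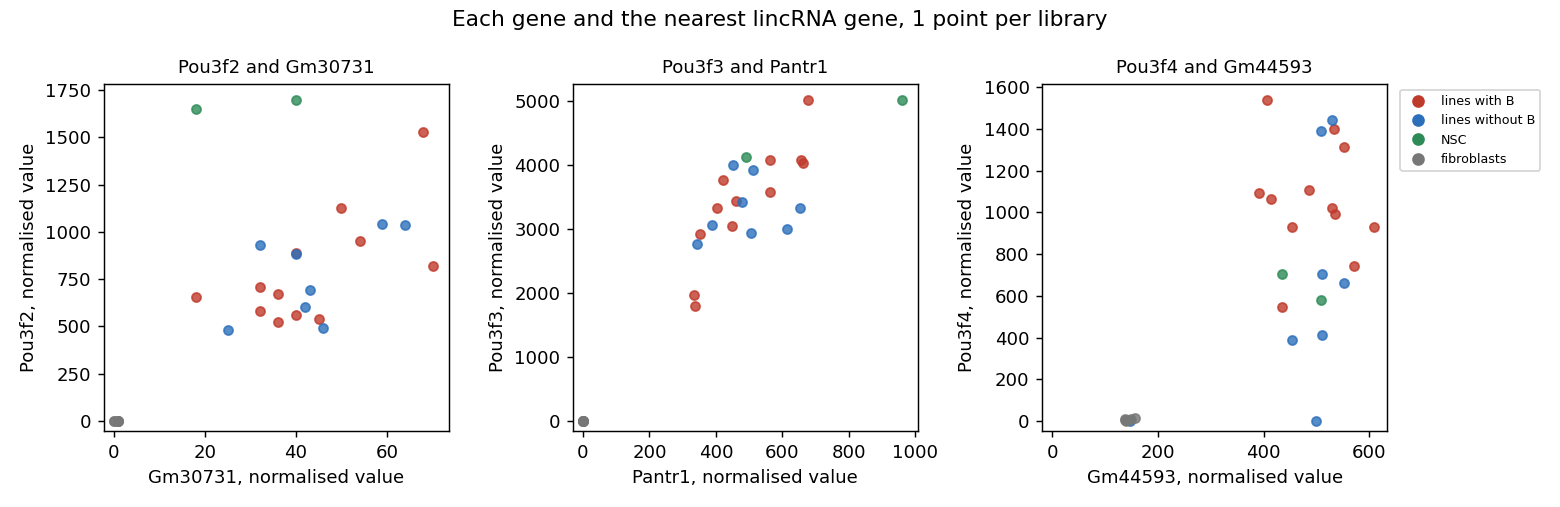
Normalised value of each POU3 gene (vertical axis) against that of its nearest long intergenic RNA gene (horizontal axis), 1 point per library. Pou3f3 and Pantr1 are both near 0 in fibroblasts and both on in all lines, while 1 ICR embryonic KF library has Pou3f4 at 0 with Gm44593 at 500.

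The genes most like each of the 3 over the 10 miNSC group means were ranked by Pearson's r of log2 values among 11303 genes, as a description. For Pou3f2 they were Dpf2 (r = 0.93), a chromatin protein, the zinc finger genes Zfp61 (0.92), Zkscan3 (0.92) and Zfp759 (0.92), and Tmem126b (0.92), an assembly factor of mitochondrial complex I. All 5 were highest in tail-tip 4F at passage 18, as Pou3f2 was. For Pou3f3 they were Eif2d (0.95), a translation factor, Mmp14 (0.90), a membrane metalloprotease, Plin2 (0.89), a lipid droplet protein, Cadm3 (0.87), an adhesion protein, and P2ry1 (0.86), an ATP and ADP receptor. All 5 were lowest in ear 4F, as Pou3f3 was. For Pou3f4 they were Ttc30a1 (0.98), a gene of cilium transport, Car8 (0.98), Asb4 (0.98), Plppr5 (0.98) and Acot9 (0.98), all lowest in ICR embryonic KF. By Spearman's rho the same 5 genes were found again in 1 of 5 cases for Pou3f2 and in 0 of 5 for Pou3f3 and Pou3f4. The Spearman's rho of the 5 genes named was 0.855 to 0.903 for Pou3f2, 0.612 to 0.915 for Pou3f3 and 0.164 to 0.77 for Pou3f4.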

How the data were processed

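RNA of 28 libraries was sequenced. The authors deposited 1 score per gene and library, whole-number normalised values whose normalisation is not given in the sources used here. RSEM, Bowtie2 2.0 and mm10 are named without order, per the submitters' processing notes. Depth is unknown, and the number of libraries limits the precision. Whether counting used strand is not given in the sources used here.

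Values were changed to log2(value + 1). Genes with a mean of at least 10 (16275 of 17295) entered 1 limma fit (limma 3.58.1, R 4.3.3, trend) with 1 term per group. P-values were adjusted by Benjamini-Hochberg over all tested genes, with a threshold of 0.05. Contrasts weigh each group the same. Line means were compared by exact permutation. Fold changes of low values are understated by the pseudocount of 1.

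The members, lists and tests were chosen with earlier results of these data known. The genes named are the members, the list genes, the 5 genes most like each member, and neighbours within 500 kb, the last chosen after the values were seen. Alternatives were other pseudocounts, filters, normalisation, variance prior, samples and a replicate block. The pipeline was tested on simulated data.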

Additional observations from a re-analysis of the deposited data

Results flagged for a closer look

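Pou3f4 differed between BKF and KMF, which gains B and loses M, in opposite directions in tail-tip and Sox2-GFP embryonic lines. B and M cannot be told apart in this difference of Pou3f4. Its interaction of origin and cocktail, tail-tip BKF over KMF less Sox2-GFP embryonic BKF over KMF, was -2.585 on the log2 scale (limma adjusted p = 0.00902) and passed in every alternative run for it (adjusted p of 7.58e-06 to 0.0435). Pou3f4 was 745 and 548 in tail-tip BKF against 1388 and 1444 in tail-tip KMF, and 1106 and 1062 in Sox2-GFP embryonic BKF against 387 and 412 in Sox2-GFP embryonic KMF.

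The interaction of strain and B of Pou3f4, ICR embryonic BKF over KF less Sox2-GFP embryonic BKF over KF, was 9.199 on the log2 scale (limma adjusted p = 1.45e-08). That size depends on the pseudocount, since both ICR embryonic KF libraries were listed at 0, and it was 5.898 with a pseudocount of 10. Both interactions were flagged because the difference itself passed the test. Each rests on 1 group of 2 libraries for each source and cocktail.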

How the results depend on the processing

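Values that moved are given with their count of called genes or log2 difference, and the cause was not tested unless named. Fitting only the samples compared, limma called 573 genes for tail-tip BKF against KMF (main 2110), 1927 for 4F passage 18 against KMF (3115), 954 for 4F passage 8 against BKF (4240) and 3500 for passage 18 against 8 (5716). With group means as samples, 1 gene passed between lines with and without B (Hao1, log2 fold change -2.09, adjusted p = 0.000509, named after its value was seen; main 3826), 192 for lines with B against NSC (6923), 6549 for lines without B against fibroblasts (11979) and 137 for lines without B against NSC (5526), where fewer samples enter. Replicate numbers did not pair the libraries: over 78 pairs of groups the correlation of same-numbered deviations was -0.06 to 0.07, and 0 were over 0.1. With the replicate block, limma called 2711 genes for Sox2-GFP embryonic BKF against KMF (1670), 3521 for tail-tip BKF against KMF, 4708 for 4F passage 18 against KMF and 3530 for the interaction of origin and cocktail (2132). Among the 3 genes the block changed 1 call, Pou3f4 in tail-tip BKF against KMF (adjusted p = 0.044). The line-mean difference of Pou3f2, -0.03, turned to 0.033 with passages kept apart, 0.021 without the ear line and 0.081 without the ICR lines, and that of Pou3f3, -0.05, to 0.007 with passages kept apart and 0.136 without the ear line; none passed.

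Leaving out 1 library at a time gave 1308 to 1470 called genes for ICR embryonic BKF against KF (2134), 862 to 986 for Sox2-GFP embryonic BKF against KMF, 2821 to 3494 for ear 4F against tail-tip 4F (4419), 1360 to 2802 for the interaction of origin and cocktail, 1739 to 2786 for 4F passage 18 against KMF, 2724 to 3886 for 4F passage 8 against BKF and 889 to 2868 for tail-tip BKF against KMF. Signs turned in the following log2 fold changes. Pou3f2 ranged over -0.026 to 0.093 for lines with against without B, -0.52 to 0.19 for ear 4F against tail-tip 4F and -0.70 to 0.01 for 4F passage 8 against BKF. Pou3f3 ranged over -0.02 to 0.035 for lines with against without B, -0.04 to 0.11 for Sox2-GFP embryonic BKF against KMF, -0.024 to 0.196 for the interaction of origin and cocktail and -0.005 to 0.127 for 4F passage 8 against BKF. Pou3f4 ranged over -0.47 to 0.12 for 4F passage 18 against KMF and -0.027 to 0.565 for passage 18 against 8. Over all limma alternatives, the line means not counted, Pou3f2 kept direction and side of the threshold in 257 values, lost a call in 7, gained one in 4 and turned sign in 4. For Pou3f3 these numbers were 251, 0, 11 and 10, and for Pou3f4 245, 9, 16 and 2.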

Other observations

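Pou3f4 was not the only gene listed at 0 in ICR embryonic KF alone. Of 6392 genes with a mean of at least 300 in every other miNSC group, 3 were at 0 in both libraries of this line. They were Pou3f4, Fbln1, a matrix protein, and Ttc30a1, a gene of cilium transport. Fbln1 had means of 604 to 2182 in the other miNSC groups and Ttc30a1 had means of 332 to 490. In the other 9 miNSC groups the same search found 0 to 2 genes. These genes were searched for after the level of Pou3f4 had been seen.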
